A study of Mus musculus with 24 samples.

Results

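The 37 genes described here are glycolytic genes and genes induced by low oxygen. They were taken from a fixed list of symbols, and all 37 were found in the deposited gene annotation of 31420 genes and among the 57010 genes counted. The list holds 2 glucose transporters, 14 glycolytic enzymes, 3 genes of lactate and pyruvate handling, 2 regulators of glycolytic flux, 3 HIF alpha subunits, 2 prolyl hydroxylases and 11 other hypoxia-inducible genes. All 37 passed the filter on low counts, with at least 46 reads in every library.

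Hypoxia-inducible factor (HIF) is the transcription factor by which cells answer a lack of oxygen. In the presence of oxygen, prolyl hydroxylases mark its alpha subunits for degradation, so its activity is set mainly through protein stability rather than mRNA level. Its targets include most glycolytic enzymes, glucose and lactate transporters, and feedback genes such as the prolyl hydroxylases themselves. The fetal lung develops at low oxygen tension and meets a large rise in oxygen at birth, and 85% O2 adds to that rise.

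Lung mRNA of newborn C3H/HeN mice was measured in 8 groups of 3 libraries, 1 library per pup. Dams were fed a Se-sufficient diet (SeS, 0.4 ppm sodium selenite) or a Se-deficient diet (SeD, below 0.01 ppm), from 3 weeks of age through breeding and nursing, and their pups breathed room air (RA, FiO2 0.21) or hyperoxia (O2, FiO2 0.85) from the first day. Lungs were taken at PN1 or PN3, after 24 h or 72 h, and the dams were rotated between gases. Whether the pups of a group came from separate litters was not given, so p-values measure the spread between pups and may include litter. SeS O2 PN1 replicate 2 carries a hyperoxia title but an oxygen level of 0.21 in its labels, and was placed by its title. The authors' sheet of groups also lists that pup under O2.

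Libraries held 25985926 to 50437601 counts, and the median was 32607014 counts. Alveolar type 2 and endothelial markers were abundant in every library, as a lung sample should show, with summed levels of at least 9845 and 1989 CPM, which are counts scaled to library size. SeD O2 PN3 replicate 1 stood apart: its 8 liver markers summed to 90997 CPM, against at most 276 CPM in replicates 2 and 3, and Alb alone reached 40173 CPM. SeD O2 PN1 replicates 1 and 2 also carried Alb, at 3932 and 2614 CPM. Among RA libraries, Alb was highest in SeS RA PN3 replicate 3, at 955 CPM, and SeS RA PN1 replicate 1, at 329 CPM. Summed olfactory and vomeronasal receptor counts ranged from 115 to 531 CPM in O2 and from 22.4 to 46 CPM in RA, apart from SeD RA PN1 replicates 1 and 2 at 321 and 718 CPM. The part of these receptor reads in the gas and diet comparisons was not tested. Results that rest on the Alb-rich libraries are given with and without them.

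Upstream sequence of 4 of these genes is shown first, because HIF binds DNA through a short core, ACGTG or GCGTG. Each line gives the 250 bases before the transcription start of the canonical transcript in GENCODE M39 on GRCm39, written 5′ to 3′ on the strand of the gene. Capitals mark every match to ACGTG or GCGTG on either strand, where a match on the opposite strand reads CACGT or CACGC.

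Ankrd37, chr8:46452906-46453155, minus strand: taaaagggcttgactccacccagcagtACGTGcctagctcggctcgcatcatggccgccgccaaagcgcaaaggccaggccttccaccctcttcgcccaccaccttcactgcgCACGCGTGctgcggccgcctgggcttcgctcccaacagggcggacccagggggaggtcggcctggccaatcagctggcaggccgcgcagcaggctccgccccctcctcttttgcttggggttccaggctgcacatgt
Adm, chr7:110226608-110226857, plus strand: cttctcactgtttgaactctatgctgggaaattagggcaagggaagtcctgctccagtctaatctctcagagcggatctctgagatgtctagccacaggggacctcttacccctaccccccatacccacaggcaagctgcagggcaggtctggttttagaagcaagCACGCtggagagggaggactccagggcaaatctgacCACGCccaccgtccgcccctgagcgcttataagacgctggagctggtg
Hif3a, chr7:16796353-16796602, minus strand: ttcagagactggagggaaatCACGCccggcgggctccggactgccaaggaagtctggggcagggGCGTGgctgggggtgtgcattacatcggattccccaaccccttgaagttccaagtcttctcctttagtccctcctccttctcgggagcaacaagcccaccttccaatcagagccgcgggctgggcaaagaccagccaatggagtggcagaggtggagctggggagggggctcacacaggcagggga
Ldha, chr7:46495013-46495262, plus strand: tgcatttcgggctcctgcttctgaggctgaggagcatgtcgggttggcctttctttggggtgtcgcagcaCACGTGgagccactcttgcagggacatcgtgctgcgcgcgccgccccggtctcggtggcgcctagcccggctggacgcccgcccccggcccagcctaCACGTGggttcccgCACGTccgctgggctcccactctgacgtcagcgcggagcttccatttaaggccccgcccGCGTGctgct

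These 4 were chosen after their values were seen. Ankrd37 and Adm had the lowest and the highest fold changes among the genes called in hyperoxia, Hif3a was called in the most comparisons, and Ldha had the most matches, 6. An ACGTG that lies within CACGTG was counted on both strands. Of the 37 genes, 26 (70.3%) held at least 1 match in this window, against 8995 (41.3%) of 21757 protein-coding genes. Pdk1, Gpi1, Tpi1, Pkm and Car9 were among the 11 with none. A match describes letters and is not evidence of binding.

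**Figure D1:**
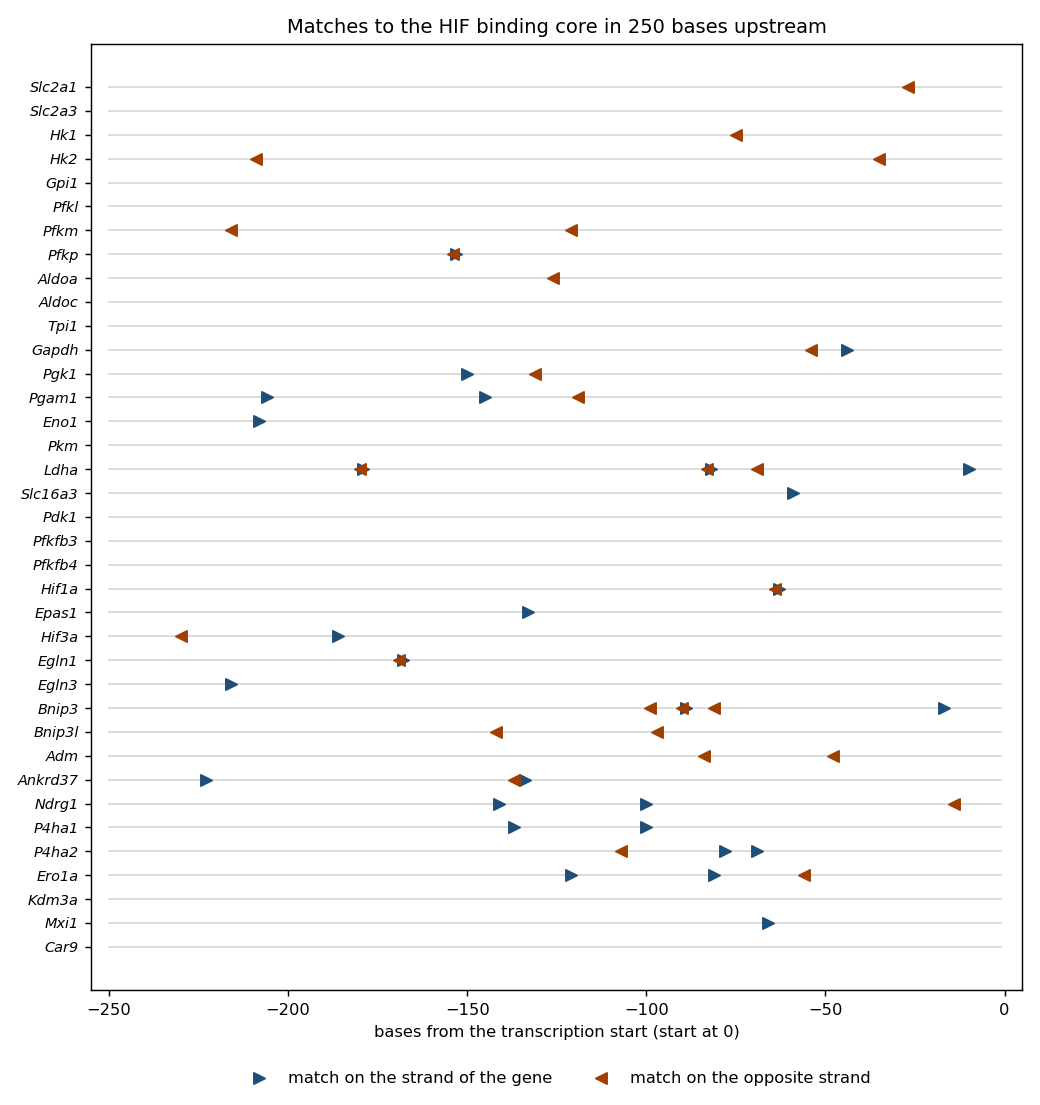
Positions of ACGTG or GCGTG matches in the 250 bases before the transcription start of each gene, with distance from the start in bases on the x axis and 1 line per gene. Triangles point right for the strand of the gene and left for the opposite strand, and 26 of the 37 genes carry at least 1, up to 6 in Ldha.

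Levels of the 37 genes covered a wide range. Compared per length, as CPM per kilobase of annotated exon (RPKM), Epas1, which encodes HIF-2 alpha and is strongly expressed in lung endothelium, was the highest with a median of 169 RPKM over the 24 libraries. Ldha, Pgk1 and Tpi1 followed at 68.5, 61.0 and 50 RPKM. The lowest were Hif3a at 1.31 RPKM, the lactate exporter Slc16a3 at 1.08 RPKM and the carbonic anhydrase Car9 at 0.980 RPKM. Annotated exon joins the exons of all transcripts of a gene, so these ranks depend on the annotation. It came to 13417 bases for Pkm and 5649 bases for Epas1. In CPM, Epas1 was also the highest, with a median of 953 CPM, followed by Pkm at 431 CPM and Ldha at 324 CPM. Gapdh, usually among the most abundant mRNAs, had 3.29 RPKM over 7160 bases of annotated exon. Its transcript has 47 other places in the genome that match over at least 300 bases at 95% identity or more. Eno1 has 4 such places, Pgk1 and Pgam1 have 3, Egln1 and Bnip3 have 2, and Tpi1, Pkm, Bnip3l and Ero1a have 1. Counts of these 10 genes, and of Aldoa, whose exons overlap another gene, Gm57854, on the same strand, are uncertain in level because shared reads may have been left out. Whether counting used strand was not stated, and exons of Slc2a1, Hk1, Pfkl, Pfkm, Pfkp, Aldoa, Tpi1, Gapdh, Pgam1, Pkm, Ldha, Slc16a3, Hif1a, Egln1, Bnip3, Adm, Ankrd37, Ndrg1, Ero1a, Mxi1 and Car9 overlap genes on the opposite strand, whose reads could then not be told apart.

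Hyperoxia changed few of these genes at PN1. In SeS pups, 0 of 37 were called in O2 against RA, a gene being called when its adjusted p was under 0.05 and its log2 fold change exceeded 0.25 in size. Among all 23831 genes tested, 0.0378% were called. An unadjusted p under 0.05 was reached by 3 of the 37 and by 3673 of all genes. With DESeq2, 1 of the 37 was called, Ankrd37. The median log2 fold change of the 37 genes was 0.02, against 0.05 for all genes.

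The lowest value in SeS at PN1 belonged to Ankrd37, an ankyrin repeat gene induced by HIF-1. In RA it was at 14.9, 5.64 and 10.9 CPM in replicates 1 to 3, and in O2 at 3.30, 4.71 and 3.72 CPM. All 3 O2 libraries lay below all 3 RA libraries, as groups lay apart for 25.7% of all genes, but the RA libraries were widely spread. The log2 fold change was -1.42 ± 0.28 (SE, n = 3 per group) and was not called, with an adjusted p of 0.0843 in edgeR. The count of the 37 was 1 without any of 5 single libraries: SeS RA PN1 replicate 2, SeD RA PN1 replicates 2 and 3, and SeD O2 PN3 replicates 1 and 3.

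In SeD pups at PN1, 2 of 37 genes were called, both higher in O2, where 2.35% of all genes were called (1.34% higher and 1.01% lower). Aldoa, the aldolase that splits fructose bisphosphate, was at 231, 205 and 210 CPM in RA and at 402, 353 and 288 CPM in O2. The groups did not overlap. Its log2 fold change was 0.69 ± 0.12 (adjusted p = 0.00591). Gpi1, glucose-6-phosphate isomerase, was at 219, 209 and 216 CPM in RA and at 343, 313 and 259 CPM in O2, again without overlap. Its log2 fold change was 0.50 ± 0.12 (adjusted p = 0.0314). For both genes the O2 libraries were ordered as their Alb levels were, 3932, 2614 and 135 CPM. Heart muscle markers summed to 2531 CPM in O2 replicate 1 and to 378 and 644 CPM in replicates 2 and 3, against 466 to 989 CPM in RA. Erythroid markers summed to 10934 to 16674 CPM in O2 and to 7197 to 8906 CPM in RA, without overlap. The part of these tissues in the rise was not tested. With the 3 Alb-richest libraries left out, the O2 group held replicate 3 alone, taken to vary like the other groups, and the values were 0.44 for Aldoa and 0.30 for Gpi1. The count was 1 without SeD O2 PN1 replicate 1 or 2 or any SeD RA PN1 library, 4 without SeD O2 PN3 replicate 3 and 10 without SeD O2 PN3 replicate 1, which enter only through the shared spread. The genes gained without SeD O2 PN3 replicate 1 were Eno1, Gapdh, Kdm3a, Ldha, P4ha1, Pgk1, Slc2a3 and Tpi1, all higher in O2. Ldha was at 260 to 326 CPM in RA and 366 to 407 CPM in O2, without overlap. Pgk1 was at 96.5 to 133 CPM in RA and 126 to 170 CPM in O2, which overlapped. Fitted on the 6 libraries compared alone, the count was 0.

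More of the list leaned the same way in SeD at PN1 than passed the test. The median log2 fold change was 0.23, against 0.01 for all genes, and 26 of 37 values were above 0. The lean moved with 1 control library: without SeD RA PN1 replicate 2, which was the lowest of its group for 28 of the 37 genes, the median was 0.08. All O2 libraries lay above all RA libraries for 15 of the 37 genes and below them for 2, and 21.3% of all genes had groups that did not overlap in this comparison.

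**Figure D2:**
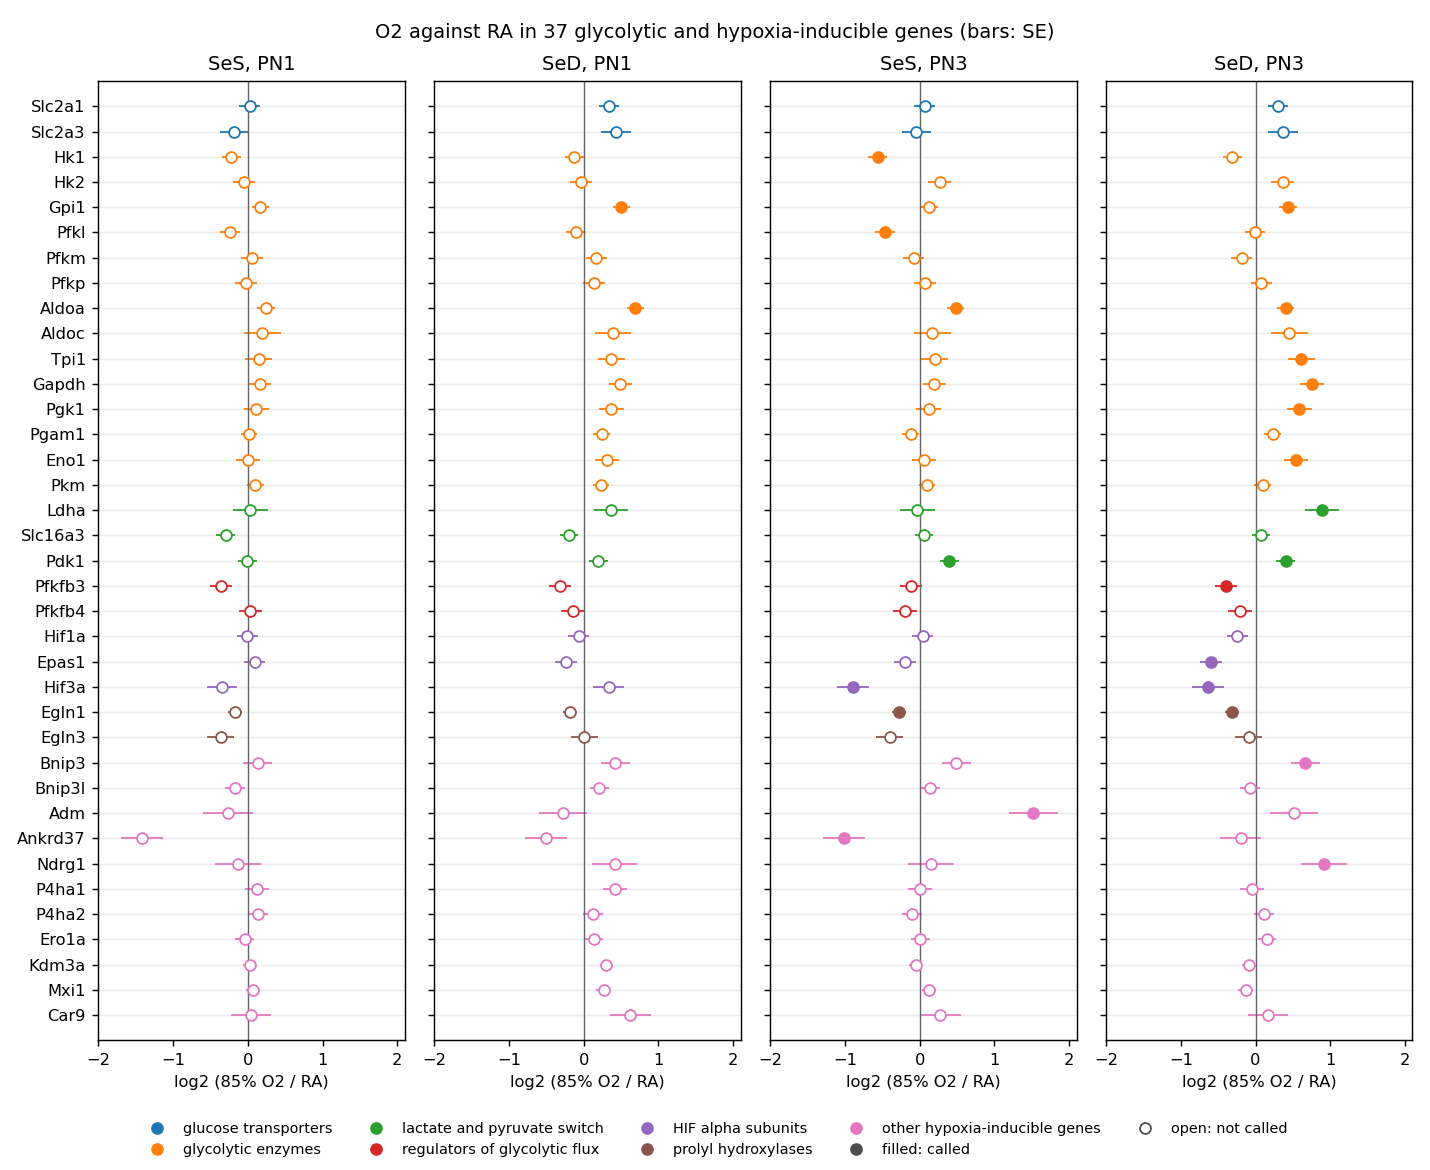
Log2 fold change of 85% O2 against RA (x axis) for the 37 genes (y axis), in SeS and SeD pups at PN1 and PN3, with SE as bars and colours for the gene's role. Filled points were called, 0 in SeS and 2 in SeD at PN1, and 8 in SeS and 14 in SeD at PN3.

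At PN3 the response was broader and went both ways. In SeS pups, 8 of 37 genes were called, 3 higher and 5 lower in O2, a share of 21.6% where 27.5% of all genes were called (15.9% higher and 11.6% lower). All O2 libraries lay above RA for 6 of the 37 genes and below RA for 7, and 49.9% of all genes had groups apart. The share called among the 37 was thus near that of all genes. The count was 5 without SeS O2 PN3 replicate 1. Among enzymes, Aldoa rose while Hk1 and Pfkl fell. Among genes of oxygen sensing, Hif3a, Egln1 and Ankrd37 fell, Adm rose, and the pyruvate dehydrogenase kinase Pdk1 rose.

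In SeD pups at PN3, 14 of 37 genes were called, 10 higher and 4 lower, a share of 37.8% where 36.1% of all genes were called (23.8% higher and 12.3% lower). All O2 libraries lay above RA for 11 of the 37 genes and below RA for 5, and 43.3% of all genes had groups apart. The 10 that rose were 6 enzymes of glycolysis (Gpi1, Aldoa, Tpi1, Gapdh, Pgk1 and Eno1), Ldha, Pdk1, Bnip3 and Ndrg1. The 4 that fell were Pfkfb3, Epas1, Hif3a and Egln1. The calls changed without SeD O2 PN3 replicate 1, which held the most Alb. Without it 9 genes were called, 6 higher and 3 lower, and 6 of the 14 remained, namely Aldoa, Gapdh, Gpi1, Ldha, Epas1 and Hif3a. Tpi1, Pgk1, Eno1, Pdk1, Bnip3, Ndrg1, Pfkfb3 and Egln1 lost their call, and Hk1, Pfkp and Pkm gained one. Pdk1 and Egln1 lost the call at 0.32 and -0.24, against 0.40 and -0.32 with all libraries, whereas Ndrg1 went from 0.92 to 0.15. The count was 7 without SeD RA PN3 replicate 2, which cost Aldoa, Tpi1, Pgk1, Eno1, Pdk1, Ndrg1 and Pfkfb3 their calls. Fitted on the 6 libraries compared alone, 0 of the 37 were called.

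Markers of other cell types moved in the same comparison. In SeD at PN3, 8 of 8 neutrophil markers were called higher in O2, with a median log2 fold change of 1.95. Their summed level was 1056, 206 and 411 CPM in O2 replicates 1 to 3, against 159 to 177 CPM in RA. The Alb-rich replicate 1 was far above the others. Of 8 macrophage markers 6 were called higher, with a median of 0.79 and sums of 1444 to 2432 CPM in O2 against 1373 to 2014 CPM in RA, which overlapped. Of 8 mesenchymal markers 4 were called lower, with a median of -0.50. Their sums were 2328, 4577 and 4370 CPM in O2 replicates 1 to 3, against 4565 to 5215 CPM in RA. The Alb-rich replicate 1 was far below the others here. Marker calls were not repeated without that library. In SeS at PN3, 0 of 8 neutrophil markers were called, 4 of 8 macrophage markers were higher and 2 of 8 mesenchymal markers were lower. Their part in the values of the 37 genes was not tested.

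Glucose transporters were not called in any comparison of gases with all libraries in edgeR. Slc2a1, the basal glucose transporter, was at 17.5, 16.9 and 16.9 CPM in SeD RA and at 22, 23 and 18.1 CPM in SeD O2 at PN3. These groups did not overlap, yet the log2 fold change of 0.30 ± 0.14 had an adjusted p of 0.0952. DESeq2 called it, at 0.37 with an adjusted p of 0.0331. Slc2a3, a high-affinity transporter, stood at 21.9 CPM in SeD O2 PN3 replicate 1 and between 9.43 and 18.2 CPM in the other 23 libraries. In SeD at PN1 it was at 11.6 to 13.3 CPM in RA and at 15.5 to 18.2 CPM in O2. These groups did not overlap, as for 21.3% of all genes. Without SeD O2 PN3 replicate 1 in the edgeR fit, it was called higher in SeD at PN1 (0.44 ± 0.13, adjusted p = 0.0307).

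Hk1 and Pfkl, enzymes of early steps of glycolysis, fell in SeS hyperoxia. Hk1, the constitutive hexokinase, was at 109, 96.3 and 128 CPM in SeS RA and at 76.6, 74.3 and 75.2 CPM in SeS O2 at PN3. The O2 libraries were close together and all below RA, with a log2 fold change of -0.56 ± 0.13 (adjusted p = 0.00537). In SeD, Hk1 was at 97.1, 112 and 109 CPM in RA and at 105, 77.1 and 75.4 CPM in O2, so that replicate 1 alone overlapped RA. Its log2 fold change was -0.31 ± 0.13 and not called, and -0.45 ± 0.12 and called without that library.

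Pfkl, the liver-type phosphofructokinase that catalyses the committed step, was at 79.6, 82.8 and 83.2 CPM in SeS RA and at 57.0, 61.5 and 59.4 CPM in SeS O2 at PN3. Its log2 fold change was -0.47 ± 0.14 (adjusted p = 0.0174). In SeD O2 it was at 95.8 CPM in replicate 1 and at 63.4 and 63.7 CPM in the others, against 72.4, 77.6 and 74.1 CPM in RA. The Alb-rich library thus lay above RA and the other libraries below it. The other phosphofructokinases, Pfkm and Pfkp, and the inducible hexokinase Hk2 were not called in any comparison of gases by edgeR with all libraries. DESeq2 called Hk2 higher in SeD at PN3, at 0.43 with an adjusted p of 0.0189.

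Aldoa rose in both diets. At PN3 it was at 187, 197 and 204 CPM in SeS RA and at 283, 263 and 275 CPM in SeS O2, with a log2 fold change of 0.48 ± 0.12 (adjusted p = 0.00724). In SeD it was at 224, 208 and 219 CPM in RA and at 238, 301 and 323 CPM in O2, with 0.40 ± 0.12 (adjusted p = 0.0107). O2 lay above RA in both diets. In SeD the Alb-rich replicate 1 was the lowest of the O2 libraries, and without it the value was 0.55 ± 0.11. The SeS call at PN3 was kept with each of the 24 libraries left out in turn.

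Gpi1 was at 202, 212 and 220 CPM in SeS RA and at 232, 225 and 235 CPM in SeS O2 at PN3. These did not overlap, but the log2 fold change of 0.13 ± 0.12 was not called. In SeD it was at 206, 203 and 211 CPM in RA and at 352, 236 and 248 CPM in O2, with 0.43 ± 0.12 (adjusted p = 0.00786). Replicate 1 was far above the rest, and without it the value was 0.26 ± 0.09, still called.

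Of the later enzymes, those called in SeD at PN3 rose mostly in 1 library. Gapdh, which oxidises glyceraldehyde-3-phosphate, was at 51.9 CPM in replicate 1 and at 31.3 and 29 CPM in replicates 2 and 3, against 23.5, 21 and 22.1 CPM in RA. Its log2 fold change was 0.75 ± 0.16 (adjusted p = 0.00202), and 0.47 ± 0.11 without replicate 1. All 3 O2 libraries were above RA. Tpi1 was at 287, 148 and 151 CPM against 133, 120 and 130 CPM, and Eno1 at 283, 160 and 151 CPM against 150, 125 and 133 CPM. Their log2 fold changes were 0.61 ± 0.18 and 0.55 ± 0.16, and 0.25 and 0.22 without replicate 1, where neither was called. The ATP-forming kinase Pgk1, an X-linked gene, was at 283, 168 and 155 CPM against 136, 125 and 143 CPM. Its value was 0.59 ± 0.17, and 0.29 without replicate 1, not called. Pkm, Pgam1 and Aldoc were not called in any comparison of gases by edgeR with all libraries. For Pkm, replicate 1 was 0.708 times the mean of replicates 2 and 3. Without replicate 1, Pkm was called higher in SeD at PN3 (0.27 ± 0.09, adjusted p = 0.0323). DESeq2 called Pgam1 higher in that comparison with all libraries. By Ddx3y, a Y-linked gene, 0 of 3 SeD O2 libraries and 2 of 3 SeD RA libraries at PN3 had more than 1 CPM. With a sex term, chosen after seeing the data, 11 of the 37 genes were called in this comparison, 8 higher and 3 lower.

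Ldha, which converts pyruvate to lactate, stood far higher in 1 library than in the rest. It was at 985 CPM in SeD O2 PN3 replicate 1 and at 391 and 366 CPM in replicates 2 and 3, against 324, 301 and 316 CPM in SeD RA. Its log2 fold change was 0.89 ± 0.23 (adjusted p = 0.00646), and 0.30 without replicate 1, where it was still called. With the 3 Alb-richest libraries left out, of which the 2 others are PN1 libraries, it was 0.27 and not called (adjusted p = 0.0812). In SeS at PN3 it was at 304, 333 and 312 CPM in RA and at 279, 321 and 329 CPM in O2, and the groups overlapped.

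Ndrg1, a stress-response gene, also stood apart, with 72.2 CPM in replicate 1 against 18.6 and 26.7 CPM in the others and 23.7, 19.5 and 18.8 CPM in RA. Without replicate 1 its log2 fold change went from 0.92 ± 0.31 to 0.15. Replicate 1 was 3.19 times the mean of replicates 2 and 3 for Ndrg1 and 2.60 times for Ldha. It was the highest of its group for 19 of the 37 genes and the lowest for 15. Pck1, the entry enzyme of gluconeogenesis and abundant in liver, was at 422 CPM in the same library and at 2.16 and 0.738 CPM in the others. The part of liver tissue in these values was not tested.

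**Figure D3:**
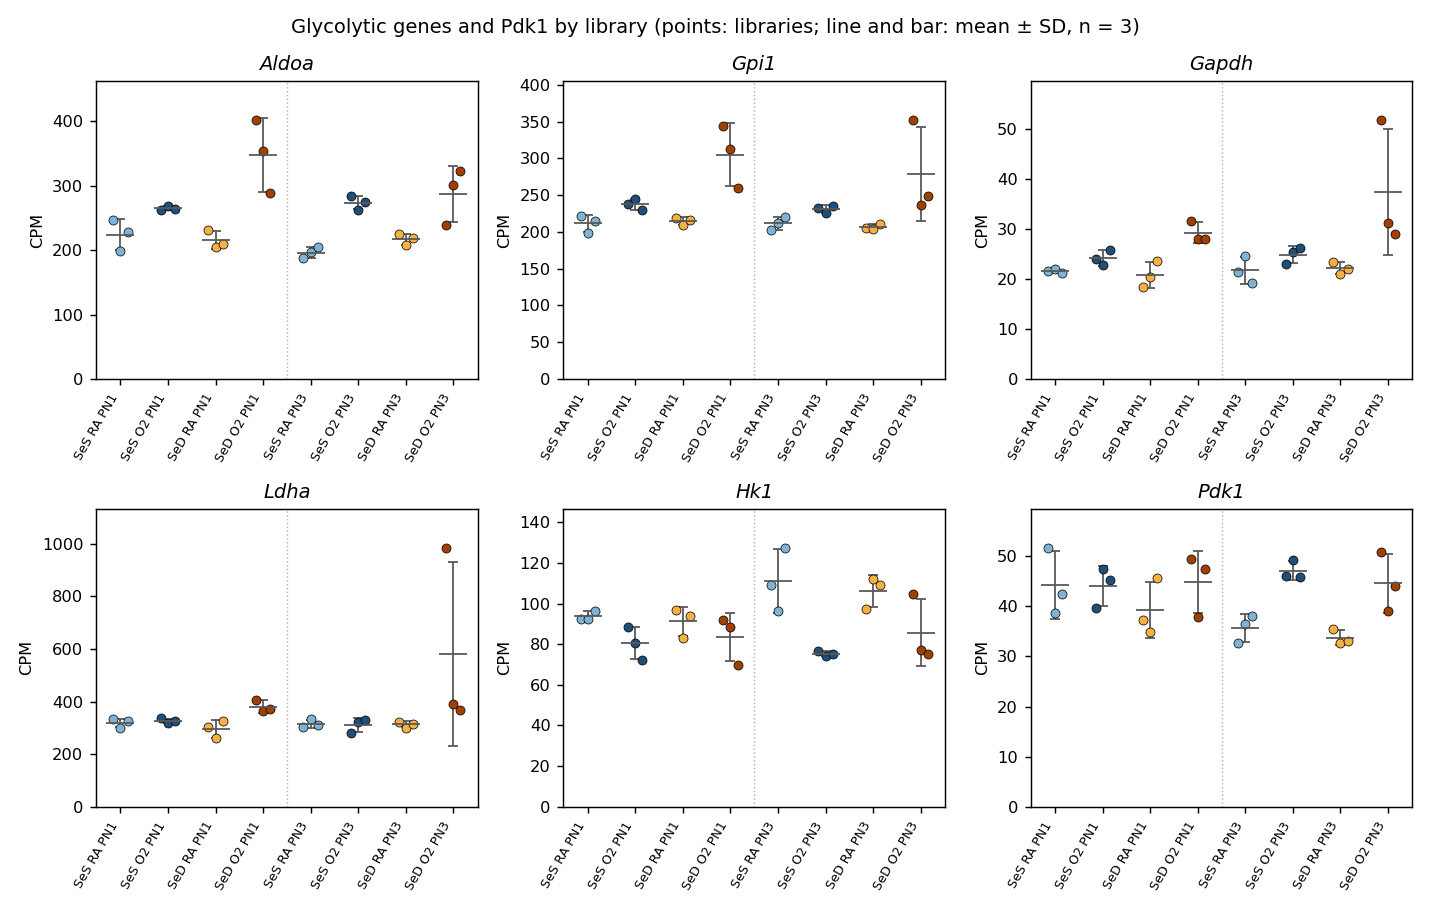
CPM (y axis, from 0) of 5 glycolytic genes and Pdk1 in each of the 24 libraries, with mean ± SD per group (n = 3). Aldoa is higher in O2 than in RA in both diets at PN3, Hk1 is lower in SeS O2, and in SeD O2 at PN3 1 library is far above the rest for Ldha, at 985 CPM.

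**Figure D4:**
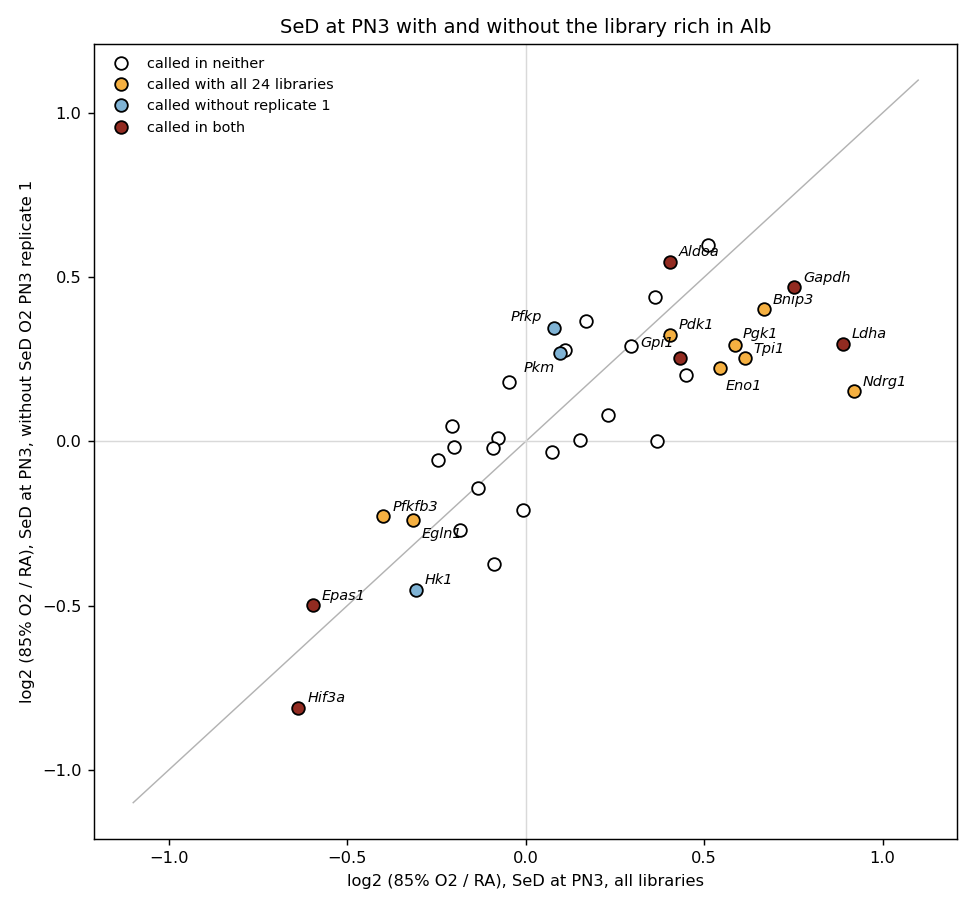
Log2 fold change of O2 against RA in SeD at PN3 with all libraries (x axis) and without SeD O2 PN3 replicate 1 (y axis) for the 37 genes, with equality as a line. Ldha and Ndrg1 lie far below the line, falling from 0.89 to 0.30 and from 0.92 to 0.15, while Aldoa, Hk1 and Hif3a move away from 0.

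Pdk1, the pyruvate dehydrogenase kinase named above, limits the use of pyruvate by pyruvate dehydrogenase in mitochondria. It was at 32.7, 36.4 and 38.1 CPM in SeS RA and at 46.1, 49.3 and 45.9 CPM in SeS O2 at PN3, a log2 fold change of 0.40 ± 0.13 (adjusted p = 0.0255). In SeD it was at 35.4, 32.6 and 33.2 CPM in RA and at 50.8, 39.1 and 44.0 CPM in O2, also 0.40 ± 0.13 (adjusted p = 0.0172). Every O2 library was above every RA library of its diet. The call was lost without any of 4 libraries in SeS (RA or O2 replicates 1 and 2) and any of 3 in SeD (RA replicates 2 and 3, and O2 replicate 1). At PN1 the groups overlapped in both diets. Slc16a3 was not called in O2 against RA.

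Of the flux regulators, Pfkfb3, which makes the activator of phosphofructokinase, was called lower in SeD at PN3 (-0.40 ± 0.15, adjusted p = 0.0370). Its O2 libraries were at 28.7, 45.4 and 35.1 CPM against 43.8, 49.2 and 51.1 CPM in RA, and the groups overlapped. The call was lost without any of 6 libraries. At PN1 Pfkfb3 was not called by edgeR with all libraries, but O2 lay below RA in both diets. It was at 38.3 to 42.8 CPM in SeS RA and 29.7 to 32.7 CPM in SeS O2. In SeD it was at 38.3 to 48.25 CPM in RA and 31.7 to 35.3 CPM in O2. Groups lay apart for 25.7% of all genes in SeS and 21.3% in SeD. DESeq2 called Pfkfb3 lower in SeD at PN1. Pfkfb4 was not called.

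The HIF alpha subunits behaved differently from one another. Hif1a, the subunit found in most cells, was not called in any of the 13 comparisons. At PN3 it was at 155, 138 and 150 CPM in SeS RA, 131, 163 and 161 CPM in SeS O2, 152, 169 and 162 CPM in SeD RA and 103, 154 and 150 CPM in SeD O2. At PN1 it was at 145, 145 and 156 CPM, 156, 149 and 140 CPM, 135, 113 and 165 CPM, and 123, 124 and 147 CPM in the same order. O2 and RA overlapped in every pair. The lowest library of the 24 was SeD O2 replicate 1 at PN3.

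Epas1 fell in SeD hyperoxia at PN3. It was at 873, 1111 and 1017 CPM in SeD RA and at 594, 713 and 679 CPM in SeD O2. The groups did not overlap, and the log2 fold change was -0.60 ± 0.15 (adjusted p = 0.00459). The call was kept with each of the 24 libraries left out in turn, and the value was -0.50 ± 0.16 without replicate 1. In SeS it was at 1019, 951 and 1407 CPM in RA and at 994, 975 and 979 CPM in O2, which overlapped (-0.20 ± 0.15). At PN1 it was at 839, 866 and 1027 CPM in SeS RA, 1053, 956 and 897 CPM in SeS O2, 977, 805 and 1071 CPM in SeD RA and 796, 902 and 726 CPM in SeD O2, again with overlap. Endothelial markers moved with Epas1. In SeD at PN3, 9 of 12 were called lower and 0 higher, with a median log2 fold change of -0.52. Their summed level was 1989, 3063 and 2306 CPM in O2 replicates 1 to 3, against 3569 to 3929 CPM in RA. The lowest was the Alb-rich replicate 1. In SeS at PN3, 3 of 12 were called lower, with a median of -0.13. In bulk lung, fewer endothelial cells and less RNA per cell cannot be told apart.

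Hif3a, whose splice forms include an inhibitor of HIF, fell in both diets at PN3. It was at 8.21, 12.6 and 9.51 CPM in SeS RA and at 6.30, 5.31 and 4.70 CPM in SeS O2, a log2 fold change of -0.89 ± 0.21 (adjusted p = 0.00613). In SeD it was at 11.9, 9.04 and 8.44 CPM in RA and at 7.93, 5.04 and 5.93 CPM in O2, a log2 fold change of -0.64 ± 0.21 (adjusted p = 0.0217). Neither pair overlapped. The SeS call was kept with each library left out, and the SeD call was lost without RA replicate 1 or O2 replicates 2 or 3. At PN1 Hif3a was at 19.8, 15.5 and 15.4 CPM in SeS RA, 13.5, 15.7 and 10.6 CPM in SeS O2, 11.5, 9.35 and 7.70 CPM in SeD RA and 12.8, 12.4 and 10.8 CPM in SeD O2.

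The oxygen-sensing prolyl hydroxylase Egln1, which marks HIF for degradation, was slightly lower in hyperoxia at PN3. It was at 86.3, 82.5 and 92.3 CPM in SeS RA and at 71.3, 71.5 and 72.5 CPM in SeS O2 (-0.28 ± 0.10, adjusted p = 0.0349). SeD libraries were at 86.4, 92.6 and 89.6 CPM in RA and at 66.6, 67 and 82.2 CPM in O2 (-0.32 ± 0.10, adjusted p = 0.0136). No O2 library reached an RA library of its diet, but both changes were close to the fold threshold. The SeS call was kept in 15 of 24 cases with a library left out, and the SeD call in 23 of 24. Egln3, its more strongly induced relative, was not called in O2 against RA by edgeR with all libraries. At PN3 it was at 13.2, 13.2 and 13.4 CPM in SeS RA and 8.23, 11.8 and 10.2 CPM in SeS O2. Without SeD O2 PN3 replicate 1 in the fit, it was called lower in SeS. SeD libraries were at 14.04, 12.77 and 12.44 CPM in RA and at 17.05, 10.03 and 9.84 CPM in O2. The Alb-rich replicate 1 thus lay above RA and the other O2 libraries below it. Without that library the SeD value was -0.37 and not called.

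Other hypoxia-inducible genes did not move as a block. Adm, which encodes the vasodilator adrenomedullin, was at 2.1, 2.70 and 1.92 CPM in SeS RA and at 3.79, 8.76 and 6.73 CPM in SeS O2 at PN3. The O2 libraries were all higher and widely spread, with a 2.87-fold rise (log2 fold change 1.52 ± 0.33, adjusted p = 0.00411). SeD libraries were at 3.42, 3.07 and 4.34 CPM in RA and at 4.74, 7.57 and 3.11 CPM in O2, which overlapped (0.51 ± 0.32). At PN1 it was at 2.64, 2.11 and 1.79 CPM in SeS RA, 2.00, 1.70 and 1.73 CPM in SeS O2, 2.03, 3.53 and 4.58 CPM in SeD RA and 3.29, 2.77 and 2.31 CPM in SeD O2.

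Ankrd37 fell while Adm rose. In SeS at PN3 it was at 6.67, 9.13 and 7.99 CPM in RA and at 3.86, 4.15 and 3.79 CPM in O2, a 2.01-fold fall (-1.01 ± 0.28, adjusted p = 0.0130). SeD libraries were at 8.03, 6.08 and 5.79 CPM in RA and at 4.38, 4.47 and 8.46 CPM in O2, where O2 replicate 3 was the highest of the 6 libraries and the value was -0.20 ± 0.27. Its exons overlap Lrp2bp and Ufsp2 on the opposite strand.

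Bnip3, a mitophagy receptor, was called higher in SeD at PN3 (0.67 ± 0.19, adjusted p = 0.0114), with O2 at 69.3, 36.8 and 46.6 CPM and RA at 34.4, 31.1 and 30.6 CPM. In SeS, O2 was at 43.6, 44.9 and 50.7 CPM and RA at 29.4, 37.3 and 32.6 CPM, also without overlap, but at 0.49 ± 0.19 and an adjusted p of 0.0661. The SeD value was 0.40 and not called without replicate 1, while the SeS value was 0.52 and called in that fit. Its relative Bnip3l, the collagen prolyl hydroxylases P4ha1 and P4ha2, the oxidoreductase Ero1a, the histone demethylase Kdm3a, the Myc antagonist Mxi1 and Car9 were not called in any comparison of gases by edgeR with all libraries.

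**Figure D5:**
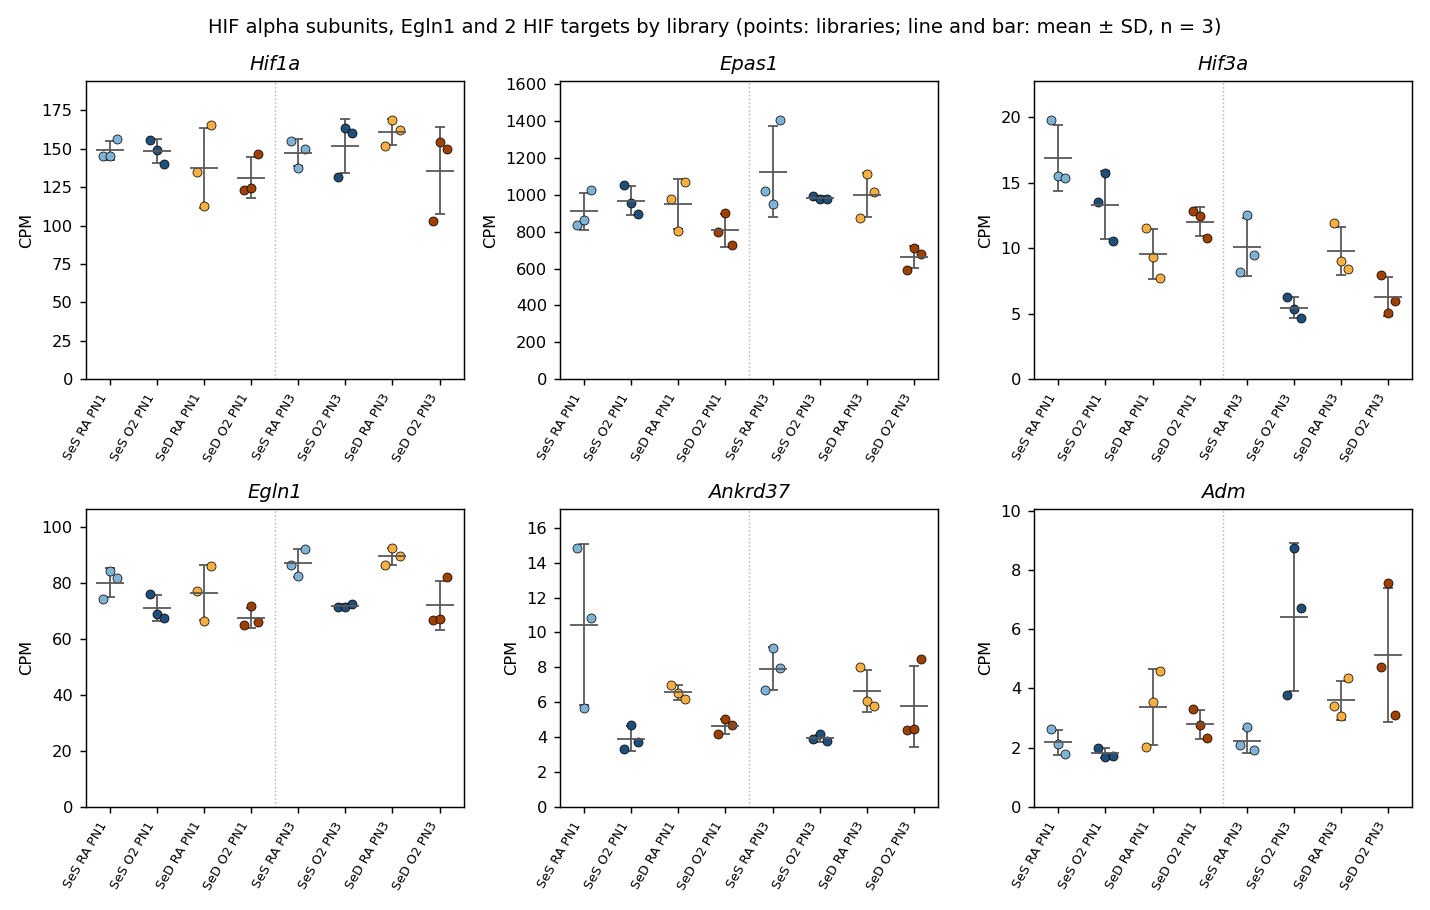
CPM (y axis, from 0) of the 3 HIF alpha subunit genes, Egln1, Ankrd37 and Adm in each of the 24 libraries, with mean ± SD per group (n = 3). Hif1a overlaps between groups, Epas1 is lowest in SeD O2 at PN3 (594 to 713 CPM), and Hif3a is lower in O2 than in RA in both diets at PN3.

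The gas responses of the 37 genes were correlated between the diets. Over the 37 genes, the log2 fold changes of SeS and SeD at PN3 had Pearson's r of 0.58 and Spearman's rho of 0.72, and 29 genes had the same sign. Without SeD O2 PN3 replicate 1, r was 0.74. At PN1 r was 0.64. The compared groups shared no library, but genes are not independent replicates. The correlation was not computed over all genes, so whether it is particular to these 37 is not known.

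The diet changed 2 of the 37 genes in RA at PN1, both lower in SeD, where 14.6% of all genes were called, 13.3% higher and 1.3% lower. Groups lay apart for 3 of the 37 genes, all lower in SeD, and for 18.8% of all genes. Hif3a fell from 19.8, 15.5 and 15.4 CPM in SeS to 11.5, 9.35 and 7.70 CPM in SeD, without overlap (-0.83 ± 0.21, adjusted p = 0.0127). Kdm3a, which removes methyl groups from histone H3, fell from 75.7, 60.7 and 63.6 CPM to 54.0, 51.7 and 57.0 CPM (-0.30 ± 0.08, adjusted p = 0.0214). Leaving out replicate 1 of SeS RA or replicate 2 of SeD RA removed both calls, the latter being the library with the most receptor reads. At the other points Kdm3a was at 60.4, 70.0 and 73 CPM in SeS O2 and 65.9, 69.3 and 64.8 CPM in SeD O2 at PN1. At PN3 it was at 55.4, 60.6 and 58.7 CPM in SeS RA, 57.1, 56.1 and 55.4 CPM in SeS O2, 53.3, 53.7 and 51.5 CPM in SeD RA and 46.4, 51.2 and 51.1 CPM in SeD O2.

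No gene of the list was called between the diets in O2 at PN1 (0.0126% of all genes called), in RA at PN3 (0.0126%) or in O2 at PN3 (1.23%). The counts at an unadjusted p under 0.05 were 4, 1 and 14 of 37, against 1164, 652 and 3809 of all 23831 genes. DESeq2 called 0, 0 and 7 of the 37, given without its share of all genes. In O2 at PN3 the smallest adjusted p were those of Ldha, higher in SeD by 0.91 ± 0.23, and Epas1, lower by 0.57 on the log2 scale, both at 0.0512. The count there was 8 without SeD O2 PN3 replicate 2 or 3, 0 without replicate 1, and 1 without SeD O2 PN1 replicate 3 or SeS RA PN3 replicate 3.

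The difference between the diets in their response to hyperoxia was tested as an interaction. No gene of the list and 0% of all genes were called at PN1 or at PN3. An unadjusted p under 0.05 was reached by 5 and 6 of 37, against 4166 and 1991 of all 23831 genes. DESeq2 called none of the 37 at either age. The median interaction of the 37 genes was 0.22 at PN1 on the log2 scale, with 31 of 37 above 0, against 0.01 for all genes. At PN3 it was 0.14 against 0.03. So for Adm, Ankrd37, Hk1, Pfkl, Epas1 and Ldha, a call in 1 diet and not in the other was not shown to be a difference between diets.

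Between the ages, 1 of 37 genes was called in RA, where 10.7% of all genes were called (5.29% higher and 5.44% lower). Slc16a3 fell from 12.6 to 16.6 CPM at PN1 to 10.6 to 14.2 CPM at PN3 over 6 libraries per age (-0.35 ± 0.09, adjusted p = 0.0166). The count was 0 without SeD RA PN3 replicate 2 and 2 to 6 without any of 6 other libraries, SeS RA PN1 replicate 2, SeD RA PN1 replicate 2, SeS RA PN3 replicate 3, SeD O2 PN3 replicate 1 or 2, and SeD RA PN3 replicate 1. In O2, 6 of 37 were called, 1 higher and 5 lower at PN3, where 4.72% of all genes were called (1.04% higher and 3.68% lower). Adm rose (1.35 ± 0.23, adjusted p = 0.00223), and Hif3a fell (-1.11 ± 0.15, adjusted p = 0.000357). P4ha1 and P4ha2, which hydroxylate collagen, fell by 0.45 and 0.38 on the log2 scale, Kdm3a by 0.35 and Mxi1 by 0.29. The Hif3a, Adm and Kdm3a calls were kept with each library left out, and the count was 3 without SeS O2 PN1 replicate 2, the library of conflicting labels.

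The gas response differed between the ages for 2 of 37 genes, where 6.74% of all genes were called (3.54% higher and 3.2% lower). For Adm the response was higher at PN3 than at PN1 by 1.29 ± 0.33 on the log2 scale (adjusted p = 0.0322). For Hif3a it was lower by 0.76 (SE 0.21, adjusted p = 0.0391). Both calls were sensitive, kept in 15 and 9 of 24 cases with a library left out. Neither was called without replicate 1 of SeS RA at PN1, replicate 1 or 2 of SeS O2 at PN1, replicate 2 of SeD RA or SeD O2 at PN1 or of SeS O2 or SeD RA at PN3, or SeS RA PN3 replicate 3. Only 1 was called without SeS RA PN1 replicate 2 or 3, SeD O2 PN1 replicate 1, SeS RA PN3 replicate 1 or 2, SeS O2 PN3 replicate 3, SeD RA PN3 replicate 1 or SeD O2 PN3 replicate 3.

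Other genes of these pathways came from lists of related genes, and their calls were not repeated without the Alb-rich libraries. Their counts stand against shares of all genes called higher and lower in O2 of 15.9% and 11.6% in SeS and 23.8% and 12.3% in SeD at PN3, and of 1.34% and 1.01% in SeD at PN1. Of 8 pentose phosphate genes, which supply NADPH from glucose-6-phosphate, 0 were called in SeS and 4 in SeD at PN1, and 3 in SeS and 4 in SeD at PN3, all higher in O2. G6pdx, the first enzyme, had log2 fold changes of 0.51 in SeD at PN1, 0.26 in SeS at PN3 and 0.27 in SeD at PN3. Pgd, the next NADPH-forming enzyme, had 0.51, 0.33 and 0.32. In SeD at PN3, Pgd was at 142, 135 and 125 CPM in RA and 150, 164 and 187 CPM in O2, with the Alb-rich library the lowest of the O2 libraries and no overlap.

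Of 12 HIF partners and regulators, 1 was called in SeS and 3 in SeD at PN3, all lower, and 0 at PN1, where 11.6% and 12.3% of all genes were called lower at PN3. Arnt, the HIF beta subunit, fell by 0.36 on the log2 scale in both diets. It was at 88.9, 89.8 and 89.7 CPM in SeS RA and at 70.1, 67.9 and 71.7 CPM in SeS O2, and at 81.7, 93.5 and 93.2 CPM in SeD RA and 63.3, 68 and 77.2 CPM in SeD O2. Neither pair overlapped.

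Of 31 other HIF target genes, 2 were called higher and 5 lower in SeS at PN3, and 7 higher and 5 lower in SeD, near the shares of all genes called, 27.5% and 36.1%. At PN1 the counts were 0 in SeS and 1 higher in SeD. Hmox1, the haem-degrading enzyme, rose by 1.67 ± 0.39 in SeS and 2.02 ± 0.40 in SeD at PN3, and the histone demethylase Kdm4b fell by 0.50 and 0.43 on the log2 scale. Of 12 other glycolytic isoenzymes tested, 2 were called in SeS and 5 in SeD at PN3, and 2 in SeD at PN1, all higher, where 15.9%, 23.8% and 1.34% of all genes were called higher. Of 17 genes of pyruvate and lactate handling, 2 were higher and 1 lower in SeS at PN3, 6 higher and 1 lower in SeD at PN3, and 1 higher in SeD at PN1. Pdk4, a kinase with the same target as Pdk1, rose in both diets at PN3, by 0.85 ± 0.28 and 0.73 ± 0.28. Of 6 gluconeogenic genes, 3 were higher and 1 lower in SeD at PN3 and none was called in the other comparisons of O2 with RA. Between the diets in O2 at PN3, 2 of the 6 were higher in SeD. The 3 that rose in O2 were Pck1, G6pc and Fbp1, liver enzymes that peaked in the Alb-rich library.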

How the data were processed

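Lung poly(A) RNA of 24 pups in 8 groups of 3 was measured as stranded libraries. The authors deposited raw counts per gene, and per the labels reads were trimmed with Trimmomatic, aligned with HISAT2 to GRCm39 and counted with featureCounts. The strand setting and annotation release are not given in the sources used here. The authors' normalized values and their tables of fold changes and p-values were not used.

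The filter filterByExpr (minimum count 10, minimum total 15) kept 23831 of 57010 genes. Libraries were normalised by TMM, and edgeR 4.0.16 under R 4.3.3 fitted a mean for each of the 8 groups. Contrasts used the quasi-likelihood F-test, with p adjusted over all genes tested (Benjamini-Hochberg). A prior count of 0.125 enters each log2 fold change, and SE is the log2 fold change over the root of F. CPM are TMM-scaled. The common biological coefficient of variation was 0.263. Positions and exon lengths come from GENCODE M39, in which 700 gene identifiers had no entry. Aldoa named 2 identifiers, and the one so named in GENCODE M39 was used. Copies of transcripts were sought with minimap2 2.31. The procedure was tested on simulated counts.

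Members and lists were chosen with earlier results of these data known. Values by library were given for the HIF alpha subunits and for genes called in at least 2 gas comparisons, a diet comparison or an interaction. From the other lists, named genes were called and had small p. Values by library of other genes were added after they were seen. Same-numbered replicates were not taken as pairs.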

Additional observations from a re-analysis of the deposited data

Results flagged for a closer look

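Adm and Hif3a were set apart because their response to hyperoxia differed between the ages by a test of the difference itself. The gas by age interaction on the log2 scale was 1.29 for Adm and -0.76 for Hif3a, each a mean over both diets. For Adm the response at PN3 was 1.52 in SeS and 0.51 in SeD, and at PN1 it was -0.27 and -0.28. For Hif3a it was -0.89 and -0.64 at PN3, and -0.35 in SeS and 0.33 in SeD at PN1. With the 3 Alb-richest libraries left out, SeD O2 held 1 library at PN1 and 2 at PN3, and the interactions were 1.43 (adjusted p = 0.0653) for Adm and -0.80 (adjusted p = 0.0662) for Hif3a in edgeR, of similar size and not called. The cause was not tested. Groups of 3 libraries are too small for a test of single outlying values.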

How the results depend on the processing

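The numbers below count the 37 genes called. No called value changed sign under any alternative, while values that were not called and medians close to 0 did in places, such as the median of 0.02 in SeS at PN1. In O2 against RA at PN1, SeS gave 1 with DESeq2, without the filter and with only the groups compared, and 6 with voomWithQualityWeights. SeD gave 1 with RLE size factors, without the filter and with the sex term (added after seeing the data), 0 with only the groups compared, 6 without the 3 Alb-richest libraries and 11 with voomWithQualityWeights. Leaving out the Alb-richest libraries leaves SeD O2 at PN1 with replicate 3 alone, which is then assumed to vary like the other groups, and SeD O2 at PN3 with replicates 2 and 3. At PN3, SeD gave 0 with only the groups compared and 6 without the Alb-richest libraries. SeD against SeS in RA at PN1 gave 1 with DESeq2, RLE and no filter, 0 with only the groups compared or with the library of conflicting labels moved to RA, and 7 with voomWithQualityWeights. In O2 it gave 3 at PN1 with voomWithQualityWeights, and at PN3 7 with DESeq2 and 5 with RLE and with no filter. The diet by gas interaction at PN1 gave 4 with voomWithQualityWeights. PN3 against PN1 in RA gave 5 with DESeq2 and without the Alb-richest libraries, 3 with RLE and no filter, 6 with only the groups compared and with the library moved, 7 with voomWithQualityWeights and 2 with the sex term. In O2 it gave 3 with only the groups compared, with the library moved and without the Alb-richest libraries, and 10 with voomWithQualityWeights. The gas by age interaction gave 5 with DESeq2, 1 with RLE and no filter, 4 with voomWithQualityWeights and 0 without the Alb-richest libraries. The cause was not tested.

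With each library left out in turn, the counts ranged from 0 to 1 in SeS and 1 to 10 in SeD at PN1, and from 5 to 9 in SeS and 7 to 16 in SeD at PN3. They ranged from 0 to 3 and 0 to 8 for the diets in RA at PN1 and in O2 at PN3. They ranged from 0 to 6 and 3 to 8 between the ages in RA and in O2, and from 0 to 3 for the gas by age interaction. The other comparisons stayed at 0.

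With the replicate block, PN3 against PN1 gave 0 in RA and 1 in O2, and the gas by age interaction gave 1. Other counts stayed within 1.5 times. Same-numbered libraries shared only a number, with a mean r of their deviations of 0.025 at PN1 and -0.057 at PN3, and 6 and 2 of 12 libraries correlated best with their own number. Low counts limit Adm and Car9, with as few as 48 and 46 reads in a library.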
